A study of Rattus norvegicus with 9 samples.

Results

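This comparison set the 3 tibia libraries of the PMLGH group (replicates 2, 3 and 4) against the 3 of the GelMA group (replicates 2, 3 and 4), over every gene of the raw count table. The comparison is between 6 of the 9 libraries of the series. The fit took in all 9, which share 1 estimate of spread, and 16816 genes that passed a filter on low counts over the 9 libraries, out of 23768 in the table. All libraries came from total RNA of the tibia of male Sprague Dawley rats. The study's title names a peptide that imitates lysyl oxidase and bone healing in diabetes. The remaining 3 libraries form a group called Model (replicates 1, 2 and 5).

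The labels give the treatment of each group by 1 word, Model, GelMA or PMLGH, and no age, dose or time of sampling. GelMA usually stands for gelatin methacryloyl, a chemically modified gelatin that sets into a hydrogel and often serves as a carrier. The labels do not expand PMLGH, do not say whether it holds the same gelatin, and do not say what was done to the rats called Model, so what all groups share is known only by strain, sex and tissue. They name no batch. Nor do they state that replicates came from different animals. The p-values therefore measure only the spread between these libraries, which may be technical. Batch and group cannot be told apart where they coincide. The samples are bulk tissue, in which fewer cells of a type and less RNA per cell cannot be told apart.

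A hydrogel placed in bone meets macrophages and other cells of innate immunity, which release cytokines and clear material through their lysosomes, and fibroblast-like cells of the periosteum, which lay down collagen. Lysyl oxidase acts on that collagen outside the cell: it oxidises lysine residues, and the products join neighbouring chains into cross-links. A piece of tibia also carries marrow, with its blood cell precursors, and may carry strands of attached muscle.

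Of the genes tested, 303 were higher in PMLGH than in GelMA (1.80%) and 275 were lower (1.64%), or 578 in all (3.44%), at an adjusted p under 0.05 by edgeR's quasi-likelihood test with Benjamini-Hochberg adjustment. At an unadjusted p under 0.05 there were 2625 genes (15.6%). Most differences were small. The median log2 fold change was 0.45 among genes that rose and -0.86 among genes that fell, and 26 of the former and 112 of the latter changed at least 2-fold. For 576 of the 578 called genes the libraries of the groups did not overlap, where 23.7% of all tested genes did not overlap. Without PMLGH 3 the test called 143 genes higher and 160 lower, and without Model 2 it called 586 and 464, out of 17174 tested. Model 2 enters the filter, the scaling and the estimate of spread, but not the group means compared. The lowest and highest total count of the 6 libraries was 35816685 and 37166383, and the groups did not overlap in it. The first principal component of the 6 libraries held 33.2% of the variance and separated the groups.

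**Figure D1:**
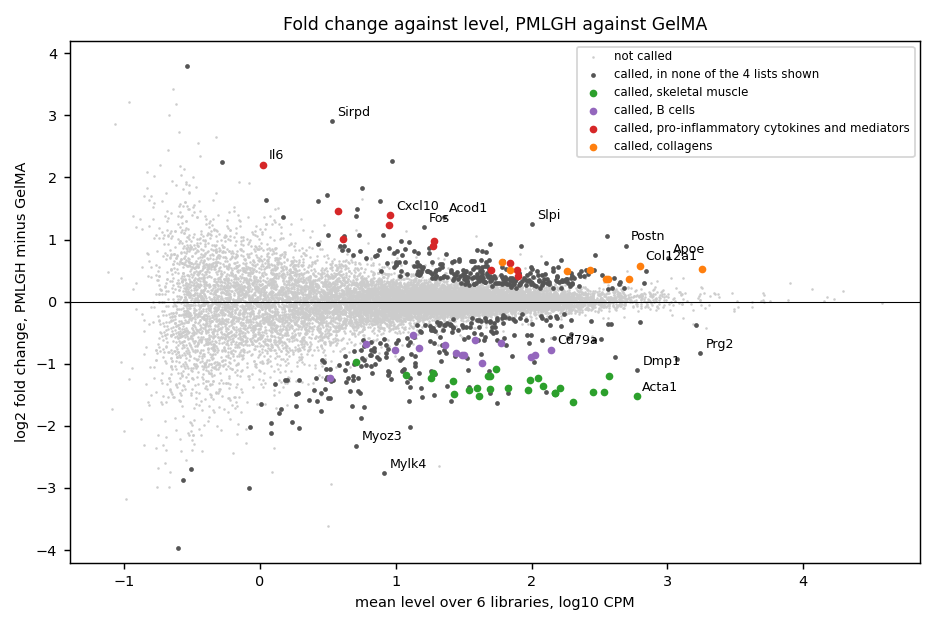
Log2 fold change of PMLGH over GelMA (vertical axis) against the mean level over the 6 libraries in log10 CPM (horizontal axis), 1 point per tested gene; 5 genes lie outside the vertical range. Called muscle and B cell genes lie below 0, and called pro-inflammatory and collagen genes lie above 0.

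The tissue label was checked against marker genes. Markers of bone cells were abundant in all 6 libraries. Col1a1, the main chain of bone collagen, had 18400 ± 1100 CPM (counts scaled to a common library size, SD, n = 3) in GelMA and 20600 ± 1600 CPM in PMLGH, and Bglap, which encodes osteocalcin, had 517 ± 31 and 437 ± 35 CPM. Hbb-b1, a beta globin of red cells, had 4320 ± 190 and 4060 ± 96 CPM. None of these 3 genes passed the test (edgeR adjusted p = 0.33, 0.23 and 0.58). The count of Hbb-b1 is uncertain because globin genes have near-identical copies.

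Cytokines and mediators of inflammation were higher in PMLGH. Of 34 tested members of that list, 11 rose, none fell, and 23 did not pass, where 1.80% of all genes rose. The median log2 fold change of the list was 0.53, and that of all tested genes was 0.003. The members that rose were Il6, Il1a, Cxcl10, Ccl2, Ccl4, Cxcl9, Ccl3, Cxcl13, Il1b, Nos2 and Nfkbia. Fewer rose with 1 library left out: 4 without GelMA 3, 7 without GelMA 4 or PMLGH 2, and 6 without PMLGH 3. Without Model 2 there were 18. Averaged over its members, log2 CPM was 2.71, 2.65 and 2.58 in GelMA 2, 3 and 4 and 3.32, 3.39 and 3.24 in PMLGH 2, 3 and 4, so all PMLGH libraries stood above all GelMA libraries.

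Cxcl10, a chemokine induced by interferon that attracts T cells, had 5.03, 4.70 and 5.40 CPM in GelMA 2, 3 and 4 and 14.4, 13.5 and 12 CPM in PMLGH 2, 3 and 4. The lowest PMLGH library was more than double the highest GelMA library. It rose by 1.40 ± 0.16 on the log2 scale (SE, edgeR adjusted p = 0.00015), and the gene was called in each of the 19 alternative analyses. Il6, a cytokine of the acute response, had 0.525, 0.410 and 0.189 CPM in GelMA and 1.78, 1.75 and 1.69 CPM in PMLGH. Its libraries were close together in PMLGH and spread in GelMA, at a low level throughout. It rose by 2.21 ± 0.48 (edgeR adjusted p = 0.018), and the call was lost without GelMA 3, GelMA 4 or any single PMLGH library, with adjusted p up to 0.085.

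Ccl2, the main chemokine for monocytes, had 6.33, 4.57 and 5.03 CPM in GelMA and 11.8, 14.0 and 11.6 CPM in PMLGH. Its log2 fold change was 1.23 ± 0.19 (edgeR adjusted p = 0.0014). Il1a, an alarm cytokine released by damaged and activated cells, had 2.38, 2.00 and 1.70 CPM in GelMA and 5.72, 5.71 and 5.21 CPM in PMLGH. Both genes are among the largest rises, whose rule took only genes with no overlap between the groups. Il1a changed by 1.45 ± 0.24 (edgeR adjusted p = 0.0024). Ccl3, a chemokine of macrophages, rose by 0.89 ± 0.12 (edgeR adjusted p = 0.00052). Nfkbia, the inhibitor that NF-kappaB itself induces, rose by 0.41 ± 0.08 (edgeR adjusted p = 0.0083), and its call was lost without GelMA 3 and on log2(FPKM + 1), with adjusted p up to 0.05.

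Promoters of called genes were searched for 8 motifs (kappaB, AP-1, ISRE, GAS, CArG, MEF2, the E-box CAGCTG and EBF) in RefSeq windows of 300 bases (GRCr8), from 250 bases before to 50 bases after the start of transcription, on both strands. The kappaB motif, the site that NF-kappaB proteins bind, was in 43 of the 229 called higher genes with a window (18.8%), in 24 of 209 called lower genes (11.5%) and in 7.60% of all 27457 windows. Here and for the other motifs, all windows include genes that were not tested. The share among tested genes was not computed, so the called genes and all windows are unlike sets. Among the 11 pro-inflammatory genes that rose, 7 had a window and 3 of these held the motif. The windows of those 3 genes, Il6, Cxcl10 and Nfkbia, are shown with the matches in capitals. A match describes the letters only. The Il6 window is chr4:5894526-5894825 (minus strand), with 1 match that begins 68 bases before the start, that of Cxcl10 is chr14:15988816-15989115 (plus strand), with matches 187, 128 and 127 bases before it, of which the last 2 overlap, and that of Nfkbia is chr6:78597023-78597322 (minus strand), with 1 match 31 bases before it.
Il6: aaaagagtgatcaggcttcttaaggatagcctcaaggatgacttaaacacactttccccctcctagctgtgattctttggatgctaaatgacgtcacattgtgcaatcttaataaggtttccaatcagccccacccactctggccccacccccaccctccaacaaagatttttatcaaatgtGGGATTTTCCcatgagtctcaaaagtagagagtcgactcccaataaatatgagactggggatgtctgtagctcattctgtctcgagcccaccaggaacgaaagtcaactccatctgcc
Cxcl10: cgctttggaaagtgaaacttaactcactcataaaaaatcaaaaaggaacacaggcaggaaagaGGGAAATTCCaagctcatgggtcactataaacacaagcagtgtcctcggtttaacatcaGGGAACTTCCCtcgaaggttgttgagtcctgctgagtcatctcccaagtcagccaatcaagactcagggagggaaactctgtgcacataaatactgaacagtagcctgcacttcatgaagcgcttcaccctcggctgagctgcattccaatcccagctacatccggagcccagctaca
Nfkbia: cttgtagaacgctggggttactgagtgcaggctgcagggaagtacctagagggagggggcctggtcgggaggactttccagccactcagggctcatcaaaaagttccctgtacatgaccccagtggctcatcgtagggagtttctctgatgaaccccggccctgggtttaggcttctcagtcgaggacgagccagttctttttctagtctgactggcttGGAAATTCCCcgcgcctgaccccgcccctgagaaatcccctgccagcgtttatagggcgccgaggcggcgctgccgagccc

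Some genes of the interferon response rose. Of 38 tested members, 5 rose (Cxcl10, Gbp2, Igtp, Irf1 and Tap1), where 1.80% of all genes rose. No member fell, 33 did not pass and the median was 0.11. Without Model 2, 9 rose and 1 fell. The median was 0.06 without GelMA 2, 0.03 without GelMA 3 and 0.25 without GelMA 4. Averaged over the members, log2 CPM was 4.86, 4.74 and 5.15 in GelMA 2, 3 and 4 and 5.11, 5.10 and 5.09 in PMLGH 2, 3 and 4, so GelMA 4 lay above all PMLGH libraries. Gbp2, a guanylate-binding protein that acts against microbes inside cells, had 46.4, 49.4 and 52.3 CPM in GelMA and 74.5, 73.5 and 70.2 CPM in PMLGH, with no overlap. It rose by 0.56 ± 0.07 (edgeR adjusted p = 0.00017). Igtp, a GTPase of the same defence, rose by 0.51 ± 0.08 (edgeR adjusted p = 0.0023), and Irf1, a transcription factor of interferon signalling, by 0.30 ± 0.06 (edgeR adjusted p = 0.0057). Tap1, a peptide transporter of antigen presentation, rose by 0.23 ± 0.06 (edgeR adjusted p = 0.049) and was called in 6 of 19 alternatives, with adjusted p up to 0.25; its call was lost without any single GelMA or PMLGH library and without Model 1 or 5. Gbp6, another member of the Gbp family that was picked after its values were seen, rose by 1.08 ± 0.16 (edgeR adjusted p = 0.0012).

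The AP-1 motif was in 7.42% of called higher genes and 7.33% of all windows, and the GAS motif in 7.42% and 8.68%. The ISRE motif is the site of interferon regulatory factors. It was in 18 of 229 called higher genes (7.86%), in 4 of 209 called lower genes (1.91%) and in 3.77% of all windows. Of the 5 interferon response genes that rose, 4 held it. Of those 4 genes the windows of Gbp2, chr2:234005477-234005776 (plus strand), and of Igtp, chr10:42874797-42875096 (plus strand), are shown with the matches in capitals. These are 2 examples, and the window of Cxcl10 printed with the kappaB matches also holds an ISRE match, which is not in capitals there. The match begins 31 bases before the start in Gbp2 and 103 bases before it in Igtp.
Gbp2: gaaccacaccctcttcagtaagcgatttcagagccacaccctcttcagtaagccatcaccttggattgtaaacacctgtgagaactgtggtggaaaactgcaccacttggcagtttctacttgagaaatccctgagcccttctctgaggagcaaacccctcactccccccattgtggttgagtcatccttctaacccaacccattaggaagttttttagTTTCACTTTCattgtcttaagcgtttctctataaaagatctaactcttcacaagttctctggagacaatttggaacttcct
Igtp: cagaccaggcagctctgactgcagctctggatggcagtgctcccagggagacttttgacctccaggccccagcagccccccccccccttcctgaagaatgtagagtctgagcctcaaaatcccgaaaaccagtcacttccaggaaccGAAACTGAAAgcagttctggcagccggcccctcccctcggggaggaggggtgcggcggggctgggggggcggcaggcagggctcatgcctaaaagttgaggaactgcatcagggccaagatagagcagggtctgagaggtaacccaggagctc

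Immediate early genes, which cells switch on within minutes of a stimulus, rose in part. Of 29 tested members, 5 rose (Fosb, Nr4a3, Fos, Socs3 and Klf6) and 1 fell (Egr3), where 1.80% of all genes rose and 1.64% fell. The median was 0.16, and 23 members did not pass. The number that rose was 3 without GelMA 3, GelMA 4 or any single PMLGH library. Fos, a subunit of the AP-1 transcription factor, had 10.3, 9.71 and 9.35 CPM in GelMA and 25.1, 24.7 and 17.4 CPM in PMLGH. PMLGH 4 was lower than the other PMLGH libraries and still above all GelMA libraries. Fos rose by 1.20 ± 0.13 (edgeR adjusted p = 9.9e-05). Its relative Fosb rose by 1.49 ± 0.19 (edgeR adjusted p = 0.00024), and Socs3, which brakes cytokine receptors, rose by 0.58 ± 0.08 (edgeR adjusted p = 0.00076). Nr4a3, a nuclear receptor of this class, rose by 1.37 ± 0.34 (edgeR adjusted p = 0.037), a call lost without any single GelMA or PMLGH library, with adjusted p up to 0.15. Egr3, a zinc finger factor also active in muscle spindles, fell by 0.70 ± 0.14 on the log2 scale (edgeR adjusted p = 0.011), a call lost without GelMA 3 or PMLGH 4 and on log2(FPKM + 0.1) (adjusted p up to 0.073). The handling time of the tissue is not in the labels, and its part in these genes was not tested.

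Markers of macrophages and monocytes were higher in PMLGH. Of 23 tested members, 8 rose (Siglec1, Cd14, Adgre1, Trem2, Cd68, C1qc, C1qb and C1qa), where 1.80% of all genes rose. No member fell, 15 did not pass and the median was 0.29. Without GelMA 3, 5 rose, and without Model 2, 15 rose. The members took 0.914% to 1.01% of all counts in GelMA and 1.10% to 1.19% in PMLGH, and no member was at 0 in all 6 libraries. Cd68, a lysosomal protein of macrophages, had 163, 149 and 158 CPM in GelMA and 198, 201 and 209 CPM in PMLGH. The groups did not overlap, and the log2 fold change was 0.37 ± 0.06 (edgeR adjusted p = 0.0039). Adgre1, which encodes the macrophage antigen F4/80, rose by 0.64 ± 0.10 (edgeR adjusted p = 0.0021). Cd14, the co-receptor for bacterial lipopolysaccharide, rose by 0.67 ± 0.09 (edgeR adjusted p = 0.00045), and Siglec1, a sialic acid receptor of tissue macrophages, by 0.69 ± 0.11 (edgeR adjusted p = 0.0026). The part of the macrophage markers in the rises of other genes that macrophages express was not tested.

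Genes by which macrophages handle lysosomal cargo and lipid also rose in part. Of 23 tested members, 8 rose (Apoc1, Abca1, Apoe, Plin2, Fabp5, Ctsl, Ctsz and Pltp), where 1.80% of all genes rose. No member fell, 15 did not pass and the median was 0.20. The members took 0.668% to 0.704% of counts in GelMA and 0.797% to 0.837% in PMLGH. Apoe, the apolipoprotein that macrophages secrete with cholesterol, had 768, 706 and 828 CPM in GelMA and 1210, 1340 and 1190 CPM in PMLGH. Each PMLGH library was above each GelMA library, and the log2 fold change was 0.70 ± 0.07 (edgeR adjusted p = 4.7e-05). Abca1, the pump that exports cholesterol from cells, had 52.7, 59.7 and 63.1 CPM in GelMA and 98.9, 126 and 103 CPM in PMLGH. It rose by 0.90 ± 0.11 (edgeR adjusted p = 0.00022), again with no overlap. Plin2, a coat protein of lipid droplets, rose by 0.62 ± 0.06 (edgeR adjusted p = 5.6e-05), and Ctsl, a lysosomal protease, by 0.38 ± 0.06 (edgeR adjusted p = 0.0024). Apoc1, an apolipoprotein at a low level, rose by 1.72 ± 0.35 (edgeR adjusted p = 0.011), a call lost without GelMA 2, GelMA 3 or PMLGH 3 and on log2(FPKM + 0.1), with adjusted p up to 0.063.

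Acod1, which makes itaconate in activated macrophages, had 11.6, 12.6 and 13.9 CPM in GelMA and 27.9, 37.3 and 32.4 CPM in PMLGH. It rose by 1.36 ± 0.15 (edgeR adjusted p = 9.9e-05). Arg1, the arginase of alternatively activated macrophages, had 17.8, 15.7 and 18.6 CPM in GelMA and 28.3, 26.4 and 24.6 CPM in PMLGH. It rose by 0.60 ± 0.10 (edgeR adjusted p = 0.0021), so Acod1 and Arg1 were both higher. Of 19 tested genes of alternatively activated macrophages, Arg1 and Trem2 rose, none fell and 17 did not pass, where 1.80% of all genes rose. The list's median was 0.09, and 0.02 without PMLGH 2. The log2 fold change was positive in 12 of these 19 genes and negative in 7. The list's members took 0.544% to 0.563% of counts in GelMA and 0.480% to 0.519% in PMLGH, so by share of counts the list was lower in PMLGH. Trem2, a lipid receptor, rose by 0.59 ± 0.14 (edgeR adjusted p = 0.025), and lost the call without any single GelMA library, PMLGH 2 or PMLGH 3 (adjusted p up to 0.14), and without Model 2 the list had 5 rises.

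Early components of complement, the blood proteins that tag material for uptake, were higher. Of 19 tested members, 7 rose (C1s, C2, C1r, C1qc, C1qb, Serping1 and C1qa), where 1.80% of all genes rose. Only C7 fell, where 1.64% of all genes fell, 11 members did not pass and the median was 0.25. C1qa, C1qb and C1qc are also members of the macrophage list and were counted there too. Without GelMA 3 or PMLGH 2 the number that rose was 4. C1s, a protease that starts the classical pathway, had 91.0, 86.5 and 93.7 CPM in GelMA and 133, 131 and 118 CPM in PMLGH. It rose by 0.49 ± 0.06 (edgeR adjusted p = 0.00025), and its partner C1r rose by 0.39 ± 0.05 (edgeR adjusted p = 0.0005). C2, the next protease of the pathway, rose by 0.41 ± 0.06 (edgeR adjusted p = 0.0009). C7, a component of the late pore-forming complex that was picked after its values were seen, fell by 0.37 ± 0.08 on the log2 scale (edgeR adjusted p = 0.019), a call lost without GelMA 3, GelMA 4, PMLGH 3 or PMLGH 4 and on both FPKM scales (adjusted p up to 0.11).

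**Figure D2:**
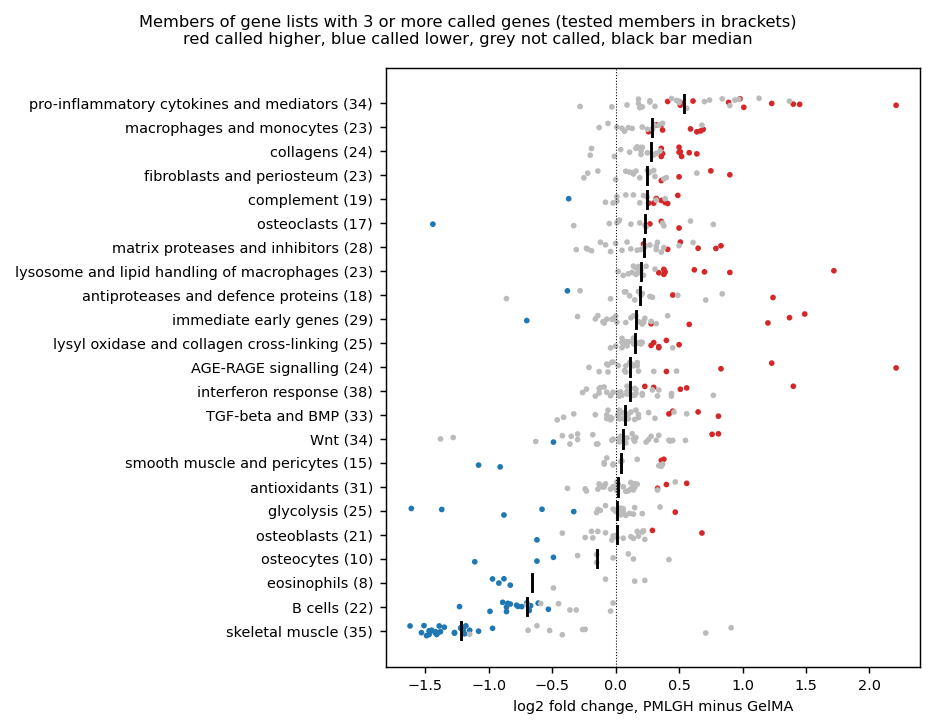
Log2 fold change of PMLGH over GelMA (horizontal axis) for each tested member of the gene lists with 3 or more called genes, 1 row per list with its number of tested members. The black bar is the list's median, which runs from -1.22 for skeletal muscle to 0.53 for pro-inflammatory mediators.

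Slpi, the secretory leukocyte protease inhibitor that blocks neutrophil elastase, had the smallest p-value of the comparison. It had 62.0, 55.8 and 61.2 CPM in GelMA and 148, 144 and 132 CPM in PMLGH. The lowest PMLGH library was more than double the highest GelMA library, and the log2 fold change was 1.24 ± 0.07 (edgeR adjusted p = 1.6e-07). In Model its libraries had 25.0, 25.4 and 27.8 CPM. Of the 18 tested antiproteases and defence proteins, Slpi and Prtn3 rose, Cst3 fell and 15 did not pass, where 1.80% of all genes rose. The median of that list was 0.19, with 14 members positive and 4 negative, and the number that rose was 4 without PMLGH 2 and 5 without Model 2. Prtn3, a protease of neutrophil granules, rose by 0.45 ± 0.10 (edgeR adjusted p = 0.02) and was called in 12 of 19 alternatives, with the call lost without GelMA 2, GelMA 4, PMLGH 3 or PMLGH 4 (adjusted p up to 0.11). Cst3, cystatin C, an inhibitor of cathepsins, fell by 0.38 ± 0.07 on the log2 scale (edgeR adjusted p = 0.0041).

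The gene listed as Saal1 had 3.92, 3.66 and 3.59 CPM in GelMA and 11.6, 12.5 and 10.4 CPM in PMLGH, and rose by 1.62 ± 0.15 on the log2 scale (edgeR adjusted p = 1.6e-05). In RefSeq that name is both a gene of its own and an older name of the acute phase gene Saa3, so its identity is uncertain here. Of 23 tested neutrophil genes Prtn3 alone rose, where 1.80% of all genes rose. No neutrophil gene fell and 22 did not pass. The list's median was 0.15, and 0.09 without PMLGH 4. Without PMLGH 2, 2 neutrophil genes rose. Without Model 2, 2 rose and 1 fell, and without GelMA 4 none rose and 1 fell.

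Collagens were higher in PMLGH as a list, by modest amounts. Of 24 tested members, 9 rose (Col18a1, Col12a1, Col3a1, Col4a1, Col4a2, Col15a1, Col6a2, Col6a1 and Col5a1), where 1.80% of all genes rose. No member fell, 15 did not pass and the median was 0.27. The members took 3.19% to 3.68% of counts in GelMA and 3.65% to 4.28% in PMLGH, ranges that overlap. Col12a1, a fibril-associated collagen of periosteum and tendon, had 491, 527 and 490 CPM in GelMA and 740, 815 and 692 CPM in PMLGH. It rose by 0.58 ± 0.07 (edgeR adjusted p = 0.00012). Col3a1, a fibrillar collagen of early repair tissue, had 1340, 1580 and 1480 CPM in GelMA and 1910, 2390 and 2010 CPM in PMLGH. Neither gene overlapped between groups, and Col3a1 rose by 0.52 ± 0.09 (edgeR adjusted p = 0.0029). Col4a1 and Col4a2, the chains of basement membranes, rose by 0.51 ± 0.07 (edgeR adjusted p = 0.00032) and 0.50 ± 0.07 (edgeR adjusted p = 0.00045). Col1a1 had a log2 fold change of 0.17 ± 0.08 and did not pass (edgeR adjusted p = 0.33).

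The lysyl oxidase and collagen cross-linking list, which the study's title points to, held 25 tested members. Of these, 6 rose (Lum, Lox, Loxl2, Fkbp10, Crtapl1 and Serpinh1), where 1.80% of all genes rose. No member fell, 19 did not pass and the median was 0.15. Crtapl1 is listed for Crtap, a partner of collagen prolyl hydroxylation. The number that rose was 2 without GelMA 2 or GelMA 4, 1 without PMLGH 3, and 1 by limma on either log2 FPKM scale. Lox, lysyl oxidase itself, had 84.4, 89.9 and 91.8 CPM in GelMA and 121, 128 and 101 CPM in PMLGH. All PMLGH libraries were above all GelMA libraries, with PMLGH 4 nearest to them. Lox rose by 0.40 ± 0.07 (edgeR adjusted p = 0.0068), and the call was lost without PMLGH 3 and on both FPKM scales (adjusted p up to 0.068). Loxl2, a relative that acts on collagen of basement membranes, rose by 0.34 ± 0.07 (edgeR adjusted p = 0.015), a call lost without GelMA 2, GelMA 4 or PMLGH 3 and on both FPKM scales (adjusted p up to 0.1). Lum, the proteoglycan lumican that spaces collagen fibrils, had 573, 576 and 567 CPM in GelMA and 786, 862 and 778 CPM in PMLGH. It rose by 0.50 ± 0.06 (edgeR adjusted p = 0.00022).

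Fibroblast and periosteum genes followed the same direction. Of 23 tested members, 4 rose (Postn, Thbs2, Lum and Prrx1), where 1.80% of all genes rose, and without Model 2 there were 7. No member fell, 19 did not pass and the median was 0.25. Postn, the periosteal matrix protein periostin, had 310, 371 and 353 CPM in GelMA and 610, 711 and 608 CPM in PMLGH. The groups stood far apart, and the log2 fold change was 0.90 ± 0.12 (edgeR adjusted p = 0.00046). Thbs2, a thrombospondin of healing tissue, rose by 0.75 ± 0.10 (edgeR adjusted p = 0.00057). Has2, which makes hyaluronan for the pericellular matrix, had 3.45, 2.49 and 2.62 CPM in GelMA and 8.91, 7.68 and 5.59 CPM in PMLGH, and rose by 1.37 ± 0.22 (edgeR adjusted p = 0.0022).

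Matrix proteases and their inhibitors rose in part. Of 28 tested members, 6 rose (among them Adamts1, Timp1, Mmp2, Mmp14 and Timp2), none fell and 22 did not pass, with a median of 0.22. Adamts1, a protease that cleaves proteoglycans, had 12.6, 13.9 and 12.5 CPM in GelMA and 23.4, 21.8 and 22 CPM in PMLGH, with no overlap. It rose by 0.79 ± 0.10 (edgeR adjusted p = 0.00022). Mmp2, a gelatinase, rose by 0.51 ± 0.06 (edgeR adjusted p = 0.00022), and its inhibitor Timp1 by 0.65 ± 0.09 (edgeR adjusted p = 0.00071). Of 33 tested genes of TGF-beta and BMP signalling, 4 rose (Ccn1, Inhba, Ccn2 and Tgfbi), none fell and 29 did not pass, where 1.80% of all genes rose. The median of that list was 0.07, with 23 members positive and 10 negative, and without GelMA 4 the number that rose was 2. Ccn1, a matricellular protein that cells make on growth factor stimulation, rose by 0.81 ± 0.10 (edgeR adjusted p = 0.00017), and Inhba, the subunit of activin A, by 0.65 ± 0.10 (edgeR adjusted p = 0.0017).

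**Figure D3:**
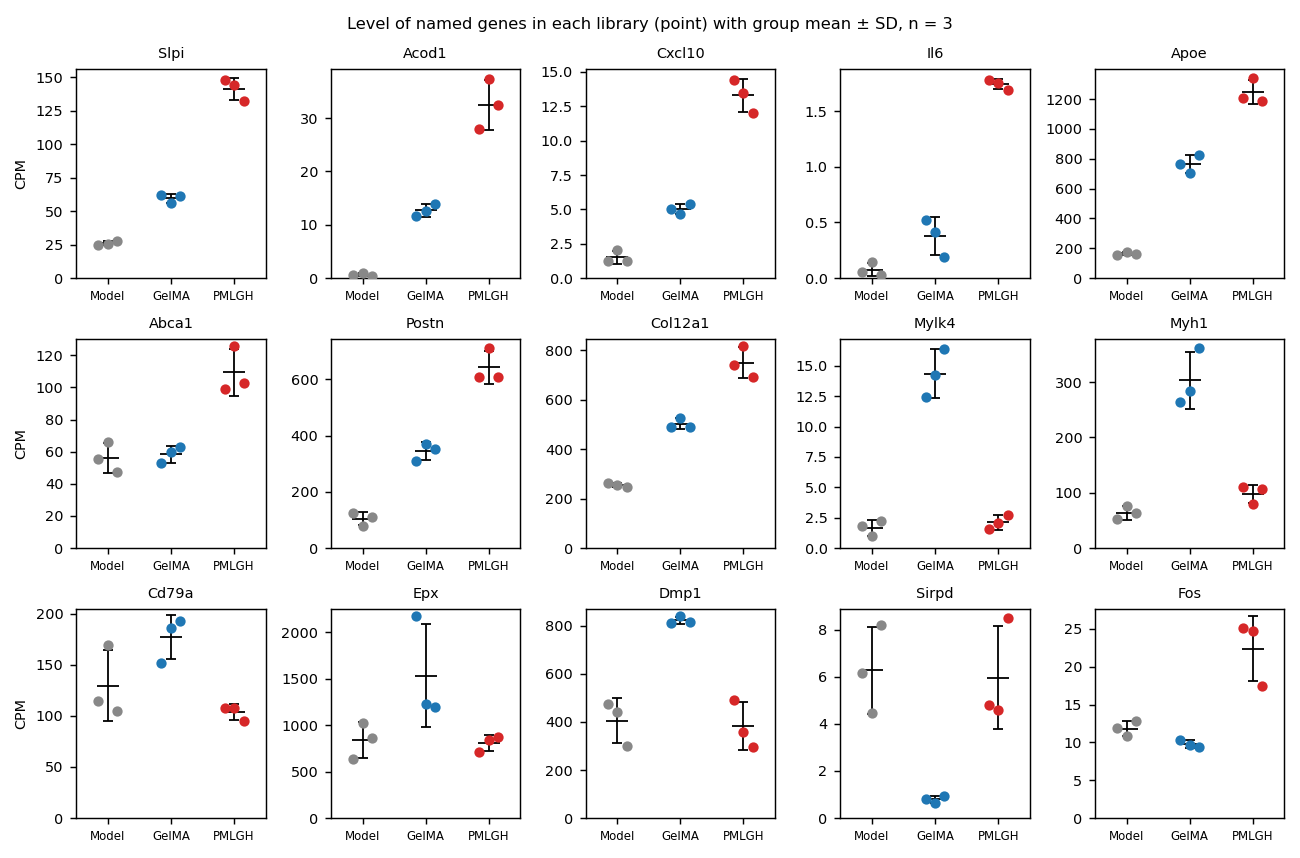
Level in CPM (vertical axes, from 0) of 15 named genes in the 9 libraries; points are libraries, and the bar is the group mean with its SD (n = 3). From GelMA to PMLGH the mean of Slpi went up and that of Mylk4 went down. Both are among the largest changes, whose rule took only genes with no overlap between these groups.

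Osteoblast genes had no common direction. Of 21 tested members, Tnn and Pth1r rose, Mepe fell and 18 did not pass, where 1.80% of all genes rose and 1.64% fell. The median was 0.01. Without Model 2, 4 members fell. Pth1r, the parathyroid hormone receptor, rose by 0.29 ± 0.06 (edgeR adjusted p = 0.021), a call lost without any single GelMA library, PMLGH 2 or PMLGH 3 (adjusted p up to 0.12). Runx2, the master transcription factor of osteoblasts, was at 0.01 ± 0.07 on the log2 scale (edgeR adjusted p = 0.98). Bglap was at -0.24 ± 0.10 (edgeR adjusted p = 0.23). Tnn, tenascin-W of the periosteum and osteogenic cells, had 116, 139 and 122 CPM in GelMA and 188, 227 and 188 CPM in PMLGH, and rose by 0.68 ± 0.09 (edgeR adjusted p = 0.0005).

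Markers of osteocytes, the cells buried in bone matrix, fell in part. Of 10 tested members, 3 fell (Dmp1, Mepe and Sost), where 1.64% of all genes fell. No member rose, 7 did not pass and the median was -0.15. Dmp1, a matrix protein that controls mineral around osteocytes, had 810, 841 and 816 CPM in GelMA and 492, 358 and 296 CPM in PMLGH. The GelMA libraries were nearly equal, and the PMLGH libraries were spread and all lower. The log2 fold change was -1.11 ± 0.16 (edgeR adjusted p = 0.001), and the call was lost with a robust estimate of spread (adjusted p = 0.066). Sost, which encodes the Wnt inhibitor sclerostin, had 58.2, 64.8 and 67.9 CPM in GelMA and 49.2, 43.3 and 43.0 CPM in PMLGH. It fell by 0.49 ± 0.07 on the log2 scale (edgeR adjusted p = 0.0012), and Mepe, a phosphoglycoprotein of the same cells, fell by 0.62 ± 0.08 (edgeR adjusted p = 0.0005).

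Osteoclast genes leaned higher in PMLGH, though most did not pass the test. The log2 fold change was positive in 14 members and negative in 3. Of 17 tested members, 3 rose (Jdp2, Tcirg1 and Clcn7) and 1 fell (Calcr), where 1.80% of all genes rose and 1.64% fell. The median was 0.23, and 13 members did not pass. Without Model 2 or Model 5 the number that rose was 8 and 5. Tcirg1, a subunit of the proton pump that acidifies the resorption pit, had 110, 119 and 110 CPM in GelMA and 152, 143 and 140 CPM in PMLGH, and rose by 0.36 ± 0.07 (edgeR adjusted p = 0.009), a call lost on both FPKM scales (adjusted p up to 0.059). Clcn7, the chloride exchanger that works beside it and also in lysosomes elsewhere, rose by 0.27 ± 0.06 (edgeR adjusted p = 0.012), a call lost without GelMA 2, GelMA 3, PMLGH 2 or PMLGH 3 (adjusted p up to 0.075). Calcr, the calcitonin receptor, had 8.23, 5.06 and 6.94 CPM in GelMA and 4.05, 1.46 and 1.96 CPM in PMLGH. Its log2 fold change was -1.44 ± 0.29 (edgeR adjusted p = 0.012), a call lost without GelMA 2, PMLGH 3 or PMLGH 4 (adjusted p up to 0.07). Acp5 and Ctsk, the phosphatase and the collagen-cutting protease of osteoclasts, were at 0.24 ± 0.09 and 0.38 ± 0.12 and did not pass (edgeR adjusted p = 0.21 and 0.1).

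Of 22 tested chondrocyte genes, Prg4 and Chad fell, where 1.64% of all genes fell. No member rose, 20 did not pass and the median was -0.25. Without PMLGH 3 or Model 1 the number that fell was 4, and without Model 2 it was 7. Prg4, lubricin of the joint surface, had 210, 220 and 242 CPM in GelMA and 148, 143 and 156 CPM in PMLGH. It fell by 0.59 ± 0.10 on the log2 scale (edgeR adjusted p = 0.0022). Chad, a matrix protein to which chondrocytes attach, fell by 0.37 ± 0.08 (edgeR adjusted p = 0.013), a call lost without GelMA 3, GelMA 4 or PMLGH 3 (adjusted p up to 0.093).

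Skeletal muscle genes fell. Of 35 tested markers, 26 fell, none rose and 9 did not pass, where 1.64% of all genes fell, and the median was -1.22. With any 1 library left out, 25 to 27 fell. The members took 0.427% to 0.540% of all counts in GelMA and 0.151% to 0.201% in PMLGH, and 0.0924% to 0.133% in Model, so each GelMA library was above all others. No marker was at 0 in all 6 libraries. Averaged over the markers, log2 CPM was 5.29 ± 0.12 in GelMA and 4.23 ± 0.11 in PMLGH (SD, n = 3).

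Myh1, a fast myosin heavy chain, had 265, 284 and 362 CPM in GelMA and 110, 80.0 and 106 CPM in PMLGH. The log2 fold change was -1.62 ± 0.14 (edgeR adjusted p = 1.6e-05), with the reserve that myosin heavy chain genes are near-identical copies. Atp2a1, the calcium pump of fast fibres, had 453, 474 and 581 CPM in GelMA and 183, 153 and 212 CPM in PMLGH. It fell by 1.46 ± 0.13 on the log2 scale (edgeR adjusted p = 1.6e-05). Mb, myoglobin, had 70.2, 69.3 and 77.4 CPM in GelMA and 26.3, 22.4 and 33.0 CPM in PMLGH, and fell by 1.41 ± 0.13 (edgeR adjusted p = 1.6e-05). In all 3 genes the groups stood far apart, with GelMA 4 the highest library. The members that did not pass included Myog and Myod1, the factors of muscle precursors, at 0.91 and -0.26.

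The list of the 15 largest falls by the rule for named genes held many muscle genes: Mylk4, Myoz3, Popdc3, Smpx, Ckmt2, Perm1, Aqp4, Scn4b, Kcna7, Smtnl1, Tekt2, Smyd1, Sypl2, Foxr1 and Mybpc1. Mylk4, a myosin light chain kinase family member, had 12.4, 14.2 and 16.4 CPM in GelMA and 1.54, 2.08 and 2.70 CPM in PMLGH. Its log2 fold change was -2.77 ± 0.25 (edgeR adjusted p = 1.6e-05). Myoz3, a protein of the muscle Z-disc, was at -2.32 ± 0.26 (edgeR adjusted p = 0.00012), and Ckmt2, the mitochondrial creatine kinase of muscle, at -2.02 ± 0.20 (edgeR adjusted p = 3.4e-05). Of these 15, Popdc3, Perm1, Aqp4, Kcna7, Tekt2 and Foxr1 lost the call in 3 to 6 of 19 alternatives, all at a low level.

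Genes of energy use in muscle fell with them. Of 25 tested glycolysis genes, 5 fell (Pgam2, Eno3, Pfkm, Pdk4 and Aldoa) and 1 rose (Pfkfb3), against 1.64% and 1.80% of all genes. The median was 0.01, and 19 members did not pass. Pgam2, Eno3 and Pfkm are the muscle forms of their enzymes, and changed by -1.61 ± 0.22, -1.37 ± 0.14 and -0.88 ± 0.07 (edgeR adjusted p = 0.0005, 5.0e-05 and 1.2e-05). Pfkfb3, an activator of glycolysis in many cells, had 71.2, 63.5 and 67.9 CPM in GelMA and 90.8, 94.8 and 94.4 CPM in PMLGH, and rose by 0.47 ± 0.06 (edgeR adjusted p = 0.00024). The part of muscle RNA in the falls of genes outside the muscle list was not tested.

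The CArG box, the site of serum response factor, was in 4 of the 22 muscle genes that fell and have a window (18.2%), in 8 of 209 called lower genes (3.83%) and in 1.64% of all windows. The myogenic E-box, searched as CAGCTG, was in 7 of these 22 (31.8%), in 57 of 209 (27.3%) and in 15.1% of all windows. It was also in 5 of the 10 B cell genes that fell and have a window. The MEF2 motif was in 4 of the 22 muscle genes (18.2%), in 11.0% of called lower genes and in 3.37% of all windows, and the EBF motif in 2.87% of called lower genes, in 0 of the 10 B cell genes and in 0.841% of all windows. The window of Acta1, skeletal muscle actin, is shown as the abundant gene of this group with a CArG box. Acta1 was picked after its values were seen, had 820, 818 and 1000 CPM in GelMA and 300, 254 and 364 CPM in PMLGH, and fell by 1.53 ± 0.14 on the log2 scale (edgeR adjusted p = 1.6e-05). It lies at chr19:68784145-68784444 (minus strand), and its match, in capitals, begins 94 bases before the start.
Acta1: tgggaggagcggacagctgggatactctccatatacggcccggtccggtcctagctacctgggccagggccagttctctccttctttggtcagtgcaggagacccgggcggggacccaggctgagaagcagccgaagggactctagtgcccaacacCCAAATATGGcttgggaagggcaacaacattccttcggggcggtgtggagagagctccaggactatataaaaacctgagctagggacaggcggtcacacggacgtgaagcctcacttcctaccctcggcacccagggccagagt

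**Figure D4:**
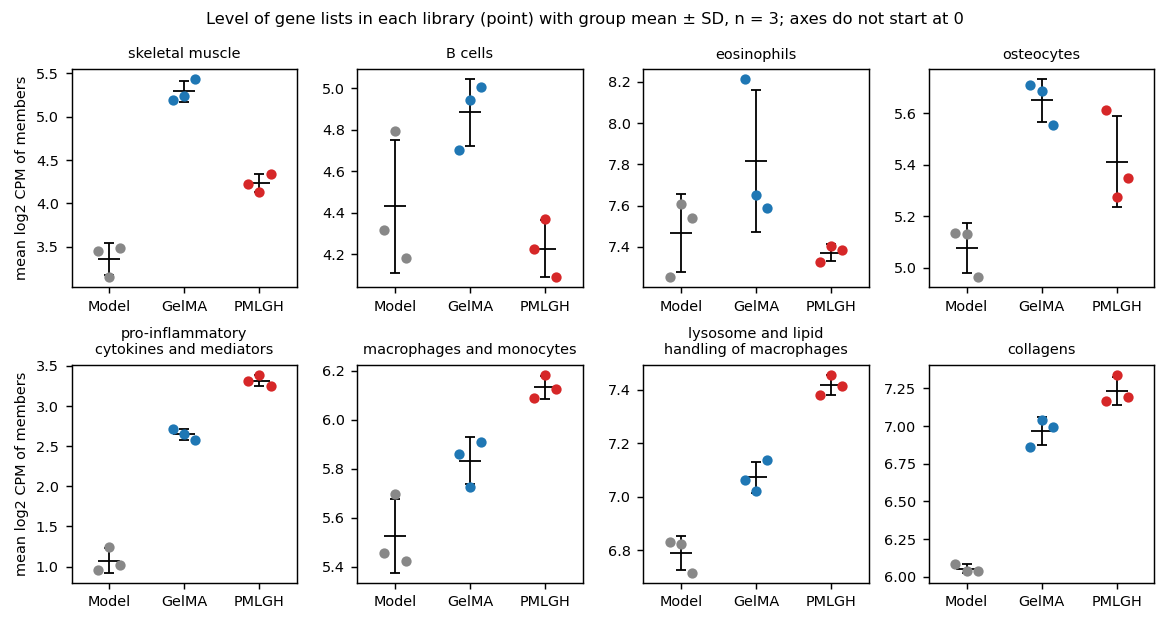
Mean log2 CPM over the tested members of 8 gene lists (vertical axes, which do not start at 0) in each of the 9 libraries, with the group mean and SD (n = 3). The muscle level was 5.29 in GelMA, 4.23 in PMLGH and 3.36 in Model.

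B cell genes were lower in PMLGH. Of 22 tested members, 15 fell, none rose and 7 did not pass, where 1.64% of all genes fell. The median was -0.70, and all 22 members had a negative log2 fold change. The members took 0.0898% to 0.114% of counts in GelMA and 0.0567% to 0.0695% in PMLGH. The number that fell was 6 without GelMA 3, 5 without GelMA 4, and 7, 8 and 6 without PMLGH 2, 3 and 4, and it was 6 with a robust estimate of spread and 4 by limma on log2(FPKM + 1). Pax5, the transcription factor that fixes B cell identity, had 33.7, 44.4 and 45.3 CPM in GelMA and 23.0, 25.3 and 19.8 CPM in PMLGH. It fell by 0.86 ± 0.14 on the log2 scale (edgeR adjusted p = 0.0028). Cd79a, a signalling chain of the B cell receptor, had 152, 186 and 193 CPM in GelMA and 108, 108 and 94.5 CPM in PMLGH, and fell by 0.77 ± 0.14 (edgeR adjusted p = 0.0043). The groups overlapped in neither gene, with GelMA 2 nearest to PMLGH. In Model the levels of Cd79a were 114, 169 and 105 CPM, so Model 2 lay near GelMA and the other Model libraries near PMLGH.

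Genes of B cell precursors were among those that fell. Rag1 and Rag2, which cut the receptor genes for rearrangement, were at -0.83 and -0.78. Vpreb3, a partner of the receptor of precursors that was picked after its values were seen, had 14.6, 16.7 and 15.3 CPM in GelMA and 7.21, 7.92 and 6.90 CPM in PMLGH. It fell by 1.08 ± 0.21 on the log2 scale (edgeR adjusted p = 0.0089), a call lost without PMLGH 4 (adjusted p = 0.052). Among 11 tested plasma cell genes Pou2af1, a coactivator that B cells share, fell by 0.70 ± 0.16 on the log2 scale (edgeR adjusted p = 0.019), a call lost without GelMA 3, GelMA 4, PMLGH 3 or PMLGH 4 (adjusted p up to 0.18). Sdc1, which stromal cells share, rose by 0.56 ± 0.07 (edgeR adjusted p = 0.00026).

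Eosinophil genes fell in 4 of 8 tested members, where 1.64% of all genes fell. These were Ear1, Epx, Prg3 and Prg2, the proteins of the eosinophil granule. No member rose and 4 did not pass, with a median of -0.66, which was -0.38 without GelMA 2. Epx, eosinophil peroxidase, had 2170, 1230 and 1200 CPM in GelMA and 715, 837 and 871 CPM in PMLGH. GelMA 2 was far above the others, and GelMA 3 and 4 were still above all PMLGH libraries. The log2 fold change was -0.92 ± 0.19 (edgeR adjusted p = 0.013). Only 1 of the 8 members fell without PMLGH 2 or PMLGH 3 and by limma on log2 FPKM, and 0 with a robust estimate of spread.

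Krt5, which basal cells of epithelia make as a keratin, had 2.90, 0.0547 and 2.59 CPM in GelMA and 0, 0.027 and 0 CPM in PMLGH, so GelMA 3 was near the PMLGH libraries. Over the groups this was 203 counts against 1, a ratio of 205 with a 95% counting interval of 36.4 to 8140, which covers counting error only. Of 10 tested epithelial genes Krt5 alone fell, where 1.64% of all genes fell, and 9 did not pass. The list's median was -2.84 at very low levels, and -1.26 without GelMA 4. The call of Krt5 was lost with a robust estimate of spread and on both FPKM scales (edgeR adjusted p = 0.0044, alternatives up to 0.17). Without GelMA 2, GelMA 3, Model 2 and Model 5 the number of epithelial genes that fell was 4, 5, 6 and 2.

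Other lists held no called gene by edgeR, where 3.44% of all genes were called and 15.6% had an unadjusted p under 0.05. These were T and NK cells (27 tested), erythroid cells (28), megakaryocytes and platelets (17), oxidative phosphorylation (38), ribosomal proteins (44), the cell cycle (38), the unfolded protein response (25) and mitochondrially encoded transcripts (10). At an unadjusted p under 0.05, 7 T and NK cell genes were higher, 3 megakaryocyte and 3 ribosomal genes were higher, 2 oxidative phosphorylation genes were lower, and 1 cell cycle and 1 mitochondrial transcript were lower. The unfolded protein response had 1 higher and 2 lower, and the erythroid list had 0. DESeq2 called 2 T and NK cell genes and 1 megakaryocyte gene higher, and 1 unfolded protein response gene each way, while limma on log2 FPKM called 0 in these lists. Without Model 2 edgeR called 3 T and NK cell genes and 1 megakaryocyte gene higher, and 1 unfolded protein response gene each way, and without Model 1 it called 1 T and NK cell gene higher.

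Class II antigen presentation and antioxidants gave a few calls, where 1.80% of all genes rose. Of 14 tested dendritic cell genes, RT1-Bb and RT1-Ba rose, none fell and 12 did not pass, and without Model 2 there were 6. RT1-Bb, a chain of the rat class II complex, rose by 0.93 ± 0.16 (edgeR adjusted p = 0.0037), a call lost with a robust estimate of spread and on both FPKM scales (adjusted p up to 0.073), and these genes vary between copies. Of 31 tested antioxidants, 3 rose (Sod2, Txnrd1 and Prdx5), none fell and 28 did not pass. Sod2, the mitochondrial superoxide dismutase, had 131, 123 and 124 CPM in GelMA and 172, 199 and 185 CPM in PMLGH, and rose by 0.56 ± 0.06 (edgeR adjusted p = 8.8e-05).

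Lists for the vasculature, fat, low oxygen and Wnt signalling gave small numbers of calls. In each the share of members called was above the 3.44% of all genes, though some held 1 call only. Of 19 tested hypoxia genes, Hif1a and Ddit4 rose, none fell and 17 did not pass. Hif1a, the oxygen-regulated transcription factor, rose by 0.42 ± 0.06 (edgeR adjusted p = 0.001), and Ddit4, a stress-induced brake on mTOR, by 0.66 ± 0.10 (edgeR adjusted p = 0.0016). Of 34 tested Wnt genes, the receptors Fzd1 and Fzd2 rose, Sost fell and 31 did not pass. Of 15 tested smooth muscle and pericyte genes, Mcam and Tagln rose, Des and Synpo2 fell and 11 did not pass. Des, desmin, is also a member of the skeletal muscle list, and fell by 1.08 ± 0.13 on the log2 scale (edgeR adjusted p = 0.00022). In adipocytes Fabp4 rose and Slc2a4, the insulin-responsive glucose transporter that muscle also makes, fell, among 20 tested genes. Eng alone rose among 21 endothelial genes, Angptl4 alone among 21 angiogenic growth factors, and Mcpt2 alone among 13 mast cell and basophil genes, and none fell in these lists. Of 24 tested genes of AGE-RAGE signalling, the response to sugar-modified proteins, 4 rose (among them Ccl2, Il6 and Icam1), none fell and 20 did not pass. Ccl2 and Il6 were also counted in the pro-inflammatory list. The number was 2 without GelMA 3 or any single PMLGH library, and Ager, the receptor itself, was at -0.03. Of the Wnt genes, 1 rose without GelMA 2, PMLGH 2 or PMLGH 3, 4 without Model 1 or Model 5, and 5 without Model 2, and 2 fell without PMLGH 2 or any single Model library. Of the smooth muscle genes, 1 rose without any single GelMA or PMLGH library, and 4 without Model 2 or Model 5. The calls of Eng, Mcpt2, Fabp4 and Slc2a4 were each lost with some single library of GelMA or PMLGH left out.

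The largest rises by the rule were Sirpd, RT1-A3, Il6, Gal, Apoc1, Saal1, Fosb, Il1a, Cxcl10, Has2, Nr4a3, Acod1, Slpi, Ccl2 and Fos. Sirpd, of the signal regulatory protein family, had 0.801, 0.656 and 0.919 CPM in GelMA and 4.8, 4.61 and 8.48 CPM in PMLGH, and 6.16, 4.48 and 8.19 CPM in Model. GelMA was thus the group that stood apart. The log2 fold change from GelMA to PMLGH was 2.91 ± 0.30 (edgeR adjusted p = 5.6e-05), and reads of near-identical relatives make it uncertain. The same holds for RT1-A3, a class I histocompatibility gene, whose change of 2.27 ± 0.47 (edgeR adjusted p = 0.012) was called in 13 of 19 alternatives and lost without GelMA 4, PMLGH 3 or PMLGH 4 (adjusted p up to 0.19). Gal, the neuropeptide galanin, had 3.68, 2.22 and 1.54 CPM in GelMA and 10.6, 8.71 and 7.17 CPM in PMLGH, and rose by 1.83 ± 0.30 (edgeR adjusted p = 0.0022). Per1, a circadian clock gene that was picked after its values were seen, had 40.9, 30.9 and 29.9 CPM in GelMA and 54.8, 60.3 and 62.4 CPM in PMLGH, and rose by 0.80 ± 0.12 (edgeR adjusted p = 0.0014). The time of day of sampling is not in the labels, and its part was not tested.

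The Model libraries place these levels, with the reserve that each comparison below shares libraries with the others. For Slpi the log2 fold change was 1.20 ± 0.07 in GelMA against Model and 2.44 ± 0.07 in PMLGH against Model. For Apoe it was 2.21 and 2.91, for Postn 1.72 and 2.62, for Acod1 4.35 and 5.71, and for Lox 1.08 and 1.48, so both groups were above Model and PMLGH was the higher. For muscle genes GelMA was well above Model and PMLGH less so, with 2.25 and 0.63 for Myh1 and 3.09 and 0.33 for Mylk4. For Dmp1 the values were 1.02 and -0.08, and for Mepe 0.82 and 0.20. Sirpd had -2.98 and -0.07, and Per1 had -0.95 and -0.14. In these 4 genes GelMA differed from Model, and PMLGH against Model did not pass the test (edgeR adjusted p = 0.75, 0.094, 0.87 and 0.42), which does not show that PMLGH and Model were alike. Abca1 had 0.06 and 0.96, and Fos -0.28 and 0.92, so in these PMLGH was the group that differed from Model (edgeR adjusted p = 1.9e-05 and 0.00012). Over all genes tested, 2637 (15.7%) were higher and 1994 (11.9%) lower in PMLGH against Model, and 2143 (12.7%) higher and 1661 (9.88%) lower in GelMA against Model.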

How the data were processed

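Tibia total RNA of 9 libraries in 3 groups was analysed. The authors deposited raw counts per gene, with no scaling, and an FPKM table, per the file headers. For 22798 of 22798 genes the deposited FPKM were the counts over library total and gene length, to a relative tolerance of 0.0001, so they add no separate measurement. The submitters' processing notes name DESeq2 and R 3.2.0. The sources used here do not give aligner, counter, build, annotation or strand. Reads from antisense genes thus cannot be separated. Total counts were 34571478 to 37166383 per library, and replicates differed beyond sampling noise.

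Genes were tested in edgeR 4.0.16 (R 4.3.3): filterByExpr by group, TMM scaling, a quasi-likelihood fit of 1 mean per group over all 9 libraries (6 residual degrees of freedom), two-sided tests and Benjamini-Hochberg adjustment over 16816 genes. The common coefficient of variation was 10.1%. CPM are counts over the library total after TMM scaling, and the SE of a log2 fold change is its size divided by the root of its F statistic. List levels use log2 CPM with a prior count of 2. No list was given a test. The fit was tested on simulated counts of 9 libraries. It recovered 41 of 65 genes with a log2 change of 0.5 and 59 of 63 with a change of 2. A gene that did not pass may therefore still differ.

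Of 999 symbols in 43 gene lists, 963 matched. Named genes were the 15 largest rises and falls among genes of mean CPM 1 or more, with a proper symbol and no overlap, the 5 members of smallest p per list, and a few set genes. The members and lists were chosen with earlier results of these data known. Some genes belong to several lists and were counted in each, so the lists are not separate findings. Alternatives were RLE and upper-quartile scaling, no filter, a stricter filter (at least 10 counts), 6 libraries only, robust spread, a replicate block, DESeq2 1.42.0, limma 3.58.1 on log2(FPKM + 1) and log2(FPKM + 0.1), and each library left out. The reference table matched 20533 symbols and 500 more by older names, and 2735 did not match. Some results are not reported here.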

Additional observations from a re-analysis of the deposited data

How the results depend on the processing

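The counts of called genes depended on the spread estimate and on single libraries. Genes higher numbered 455 with no filter, 590 with 6 libraries only, 460 by DESeq2, 185 by limma on log2(FPKM + 1) and 168 on log2(FPKM + 0.1), against 303, and genes lower numbered 469 with 6 libraries only, against 275. The remaining scalings, filters and tools left both counts within 1.5 times, with 276 higher and 306 lower under upper-quartile scaling. Leaving out 1 library gave 143 to 586 genes higher and 144 to 464 lower. Leaving out Model 1, Model 2 or Model 5 raised both counts, to 334 and 297, 586 and 464, and 321 and 293. The cause was not tested. Without GelMA 2, 3 and 4 there were 190, 173 and 184 higher and 222, 165 and 144 lower, and without PMLGH 2, 3 and 4 there were 200, 143 and 213 higher and 173, 160 and 168 lower.

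With the replicate number as a block in the 6 libraries, 577 genes were higher and 460 lower, close to the 590 and 469 without it. The deviations of same-numbered libraries from their group means correlated at 0.0136, 0.0267 and -0.00834, so no shared deviation was seen. The labels state no pairing, and correlations near these values cannot exclude one.

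Of the 141 named genes that were called, 84 kept the call in all alternatives that gave a value and none changed sign. Runx2, which was not called, had -0.01 under upper-quartile scaling and on log2(FPKM + 1), -0.02 on log2(FPKM + 0.1), -0.03 without GelMA 2 and -0.06 without PMLGH 3, against 0.01, and at most 0.06, without PMLGH 4. With 3 libraries a side, genes with few counts, such as Il6, are measured with a wide error.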
